A study of Mus musculus with 9 samples.

Results

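The genes described here are 10 transcription factors and feedback regulators of the integrated stress response, taken by name from 54532 genes measured in primary mouse hepatocytes: Atf4, Ddit3, Atf3, Atf5, Cebpg, Nupr1, Ppp1r15a, Ppp1r15b, Trib3 and Chac1. They were followed across 3 groups of 3 libraries each. CKO Tu cells came from COX-2 fl/fl mice that carry Alb-Cre, in which the albumin promoter drives the recombinase in hepatocytes, and received 6 μmol/L tunicamycin. WT Tu cells, with the same tunicamycin dose, and WT DMSO cells, with vehicle, came from COX-2 fl/fl littermates without Cre, so the floxed allele is shared by all 3 groups. All mice were of the C57BL/6 background and are labelled male, and their age is given only as matched. Cells were held in 1% serum for 2 hours before 24 hours of treatment. A CKO group with vehicle was not analysed here, so whether tunicamycin acts differently in CKO cells could not be tested. Whether the replicates are different animals is not stated in the labels. The p-values therefore reflect library-to-library spread, which may be technical.

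The integrated stress response is a shared answer of cells to several kinds of stress. Kinases that sense stress phosphorylate the translation factor eIF2, which slows protein synthesis in general while the mRNA of the transcription factor ATF4 is translated more. Tunicamycin stops N-linked sugars from being attached, unfolded proteins build up in the endoplasmic reticulum (ER), and the kinase PERK becomes active. ATF4 induces CHOP, the product of Ddit3, and both induce GADD34, the product of Ppp1r15a, which brings protein phosphatase 1 to eIF2 and lets translation resume. Since ATF4 is controlled largely at translation, its mRNA is not a measure of its protein. In liver the pathway governs amino acid supply, secreted stress hormones and cell survival under ER stress.

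Libraries held 14897358 to 16001484 assigned fragments, recovered from the deposited FPKM values (fragments scaled to gene length and library size, so that levels of different genes can be compared). WT Tu replicate 1 stood apart on the second principal component, at -36.6 against -19.6 in both other WT Tu libraries, and had the highest mitochondrial share, 6.87% of fragments. The targeted gene Ptgs2, which encodes COX-2, had 1, 1 and 2 fragments in CKO Tu, 8, 5 and 5 in WT Tu and 0, 13 and 8 in WT DMSO. Its means of 0.0189 FPKM in CKO Tu, 0.0887 in WT Tu and 0.0943 in WT DMSO were too low for it to be tested. Sex-linked transcripts went against the labels: Xist, which marks female cells, had 0 to 3 fragments in CKO Tu libraries and 20659 to 33657 in the 6 WT libraries, while 4 Y-linked genes had 3486 to 3633 fragments in CKO Tu libraries and 0 in all WT libraries. Sex and genotype therefore cannot be told apart in any comparison with CKO Tu. Hepatocyte markers summed to 13968 to 14888 FPKM in CKO Tu, 15824 to 17204 in WT Tu and 15855 to 17666 in WT DMSO, with all 8 markers detected. Most of that sum was Alb, the albumin gene, whose mean was 10276 FPKM in CKO Tu, 14277 in WT Tu and 14418 in WT DMSO. The other 7 were higher in every CKO Tu library than in every WT library, for example Apoa1 with a mean of 1348 FPKM in CKO Tu, 399 in WT Tu and 454 in WT DMSO, and Hnf4a with 19.8 FPKM in CKO Tu, 6.43 in WT Tu and 11.2 in WT DMSO. Among markers of other liver cell types, Vsig4 of Kupffer cells was at 0 in every library and Clec4f had 0 fragments in CKO Tu, 2 in WT Tu and 4 in WT DMSO over 3 libraries each. The 7 endothelial markers together reached 2.91 to 3.31 FPKM in CKO Tu, 3.796 to 5.199 in WT Tu and 10.2 to 11.1 in WT DMSO. The 6 cholangiocyte markers summed to 34.3 to 38.3 FPKM in CKO Tu, 22.8 to 24.3 in WT Tu and 22.7 to 25.9 in WT DMSO, mostly from Spp1 and Sox9. The defining marker Krt19 averaged 0.487 FPKM in CKO Tu, 0.474 in WT Tu and 0.672 in WT DMSO. The 7 stellate cell markers summed to 6.52 to 7.25 FPKM in CKO Tu, 4.98 to 5.87 in WT Tu and 5.42 to 6.54 in WT DMSO. Ecm1 made up most of these sums, at means of 4.89 FPKM in CKO Tu, 4.96 in WT Tu and 5.66 in WT DMSO. Reln averaged 1.90 FPKM in CKO Tu, 0.121 in WT Tu and 0.131 in WT DMSO, and Lrat had 0 to 3 fragments per library. The 7 lymphocyte and neutrophil markers stayed at or below 1.01 FPKM in sum. In the Kupffer list Cd68, also present in other cells, made up nearly all of the sum, 92.5 to 107 FPKM in CKO Tu, 96.8 to 115 in WT Tu and 74.0 to 91.1 in WT DMSO. The part of these cells in the results below was not tested, and in bulk RNA fewer cells and less RNA per cell cannot be told apart.

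Promoter sequence from RefSeq (build GRCm38.p6, 250 bases before to 50 after the start site) was held for 9 of the 10 genes, in 10 windows. The stretches below are shown because they hold letters that ATF4 family factors and their relatives are known to recognise. A match describes the sequence and does not show that a factor binds there. The match in Trib3 lies after the start site and is not printed. Capitals mark matches to the C/EBP-ATF response element TGATGNAA, read here on the other strand as TTGCATCA, to the cyclic AMP response element TGACGTCA, and to the hybrid TGACGCAA.
Atf3, chr1:191183406-191183473, minus strand: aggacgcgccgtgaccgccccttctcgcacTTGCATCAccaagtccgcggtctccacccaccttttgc
Nupr1, chr7:126625543-126625610, minus strand: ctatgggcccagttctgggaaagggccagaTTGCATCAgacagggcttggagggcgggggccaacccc
Chac1, chr2:119350992-119351086, plus strand: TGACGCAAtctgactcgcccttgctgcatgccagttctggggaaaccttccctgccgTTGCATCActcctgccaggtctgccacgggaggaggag
Ppp1r15a, chr7:45526269-45526310, minus strand: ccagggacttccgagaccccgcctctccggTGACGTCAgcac

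With both strands searched, TGATGNAA was present in 4 genes, Atf3, Nupr1, Chac1 and Trib3, and in 3.97% of all 32851 promoter windows. Counted from the start site, the match lay at -110 to -103 in both Atf3 and Nupr1, at -193 to -186 in Chac1, and at 15 to 22 in Trib3. TGACGTCA was present in Ppp1r15a alone among these genes, at -12 to -5 from the start site, and in 1.79% of all windows. TGACGCAA was in 0.49% of windows and in Chac1. The ER stress element (ERSE) was in 0.119% of windows and in 0 of the members' windows. The motifs do not overlap one another in these windows. Of the 4 genes with the first motif, Atf3 and Trib3 rose in WT Tu against WT DMSO, as given below, and Nupr1 and Chac1 did not pass the test. Among genes whose windows lack it, Ddit3, Ppp1r15a and Cebpg also rose, Atf5 fell and Atf4 did not pass. A relation of the motif to these calls was not tested.

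Setting WT Tu against WT DMSO addresses the response of these genes to ER stress without Cre. The CHOP, ATF3 and GADD34 mRNAs rose by 10.5, 3.28 and 2.32 times and those of Trib3 and Cebpg by 1.24 and 1.22 times, while Atf5 and Ppp1r15b fell and Atf4, Chac1 and Nupr1 did not pass. All 10 genes exceeded the filter of FPKM at least 1 in at least 3 libraries. Values were tested as log2(FPKM + 1) with limma over 11858 genes, with Benjamini-Hochberg adjusted p below 0.05 as the threshold. By this test 5 of the 10 rose, 2 fell and 3 did not pass, where 33.6% of all genes tested were called, 17.7% higher and 15.9% lower. Of all calls, 52.7% were higher, against 31.5% under scaling to total fragments and 42.2% under upper-quartile scaling. Among the 10, the median difference in log2(FPKM + 1) was 0.27, against 0.00 over all genes tested.

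**Figure D1:**
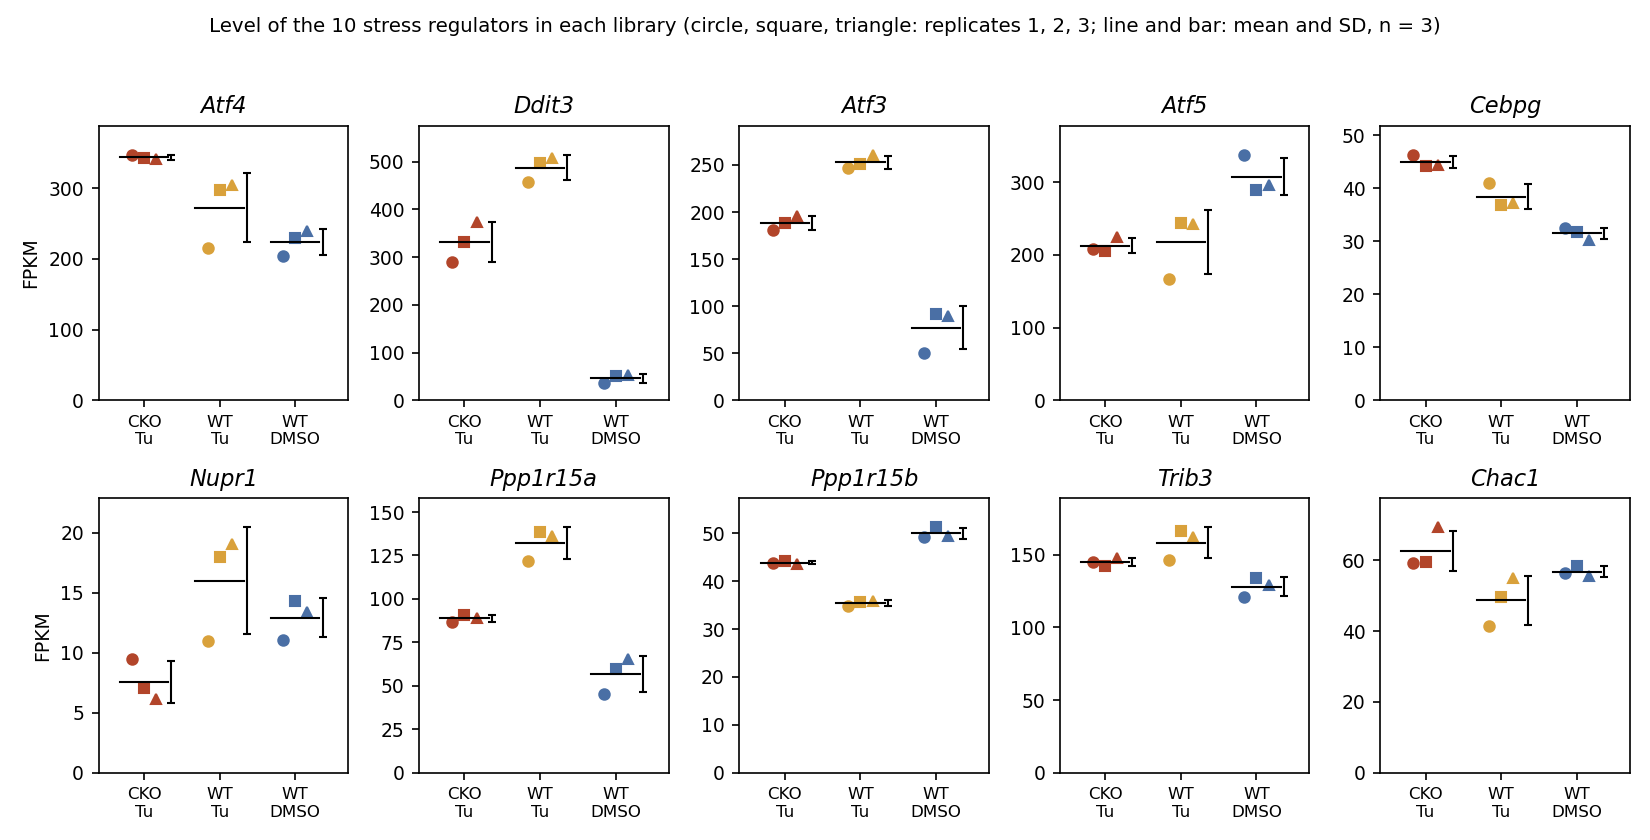
Level of each regulator in FPKM (vertical axis, from 0) in the 3 CKO Tu, 3 WT Tu and 3 WT DMSO libraries, with symbols for replicates 1 to 3, a line for the mean and a bar for the SD. Ddit3 and Atf3 are lowest in WT DMSO and highest in WT Tu, whereas Atf4 and Cebpg are highest in CKO Tu.

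The transcription factors come first. Atf4 (ENSMUSG00000042406, mm10 chromosome 15, 80255184 to 80257541, plus strand) had 216, 297 and 305 FPKM in WT Tu, against 204, 229 and 240 FPKM in WT DMSO. Replicate 1 of WT Tu lay within the WT DMSO range and the other two lay above it. The difference in log2(FPKM + 1) was 0.27 ± 0.12 (SE; limma adjusted p = 0.13), and it passed without WT Tu replicate 1, at 0.43 (limma adjusted p = 0.0018). With a trend on GC content removed, an alternative chosen after seeing the data, it also passed, at 0.39 (limma adjusted p = 0.014). With libraries scaled to total fragments it was 0.14 (limma adjusted p = 0.45).

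Ddit3 encodes CHOP, a transcription factor that promotes cell death under lasting ER stress (ENSMUSG00000025408, mm10 chromosome 10, 127290774 to 127296288, plus strand). It had 457, 498 and 507 FPKM in WT Tu, against 35.6, 50.1 and 53.4 FPKM in WT DMSO. Every WT Tu library was far above every WT DMSO library, a 10.5-fold ratio of means and a difference of 3.38 ± 0.15 in log2(FPKM + 1) (SE; limma adjusted p = 9.4e-07). Only 0.110% of the genes tested differed by more in either direction. Ddit3 thus went past Atf4, Atf3, Atf5 and Trib3: its mean of 487 FPKM in WT Tu was the highest of the 10, while in WT DMSO its 46.4 FPKM ranked eighth. Mars lies across the locus on the opposite strand, with 1221 to 2052 fragments per library beside 971 to 13427 for Ddit3, and whether the counting used strand is not stated in the sources used here, so their reads cannot be told apart. A second listed ID named Ddit3 (ENSMUSG00000116429, 105 bases) had 0 fragments in every library.

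Atf3 encodes a stress-induced repressor and activator of the same bZIP class (ENSMUSG00000026628, mm10 chromosome 1, 191170296 to 191218039, minus strand). Its level was 247, 251.5 and 261 FPKM in WT Tu and 50.6, 91.7 and 89.2 FPKM in WT DMSO. The groups did not overlap, and the WT Tu libraries were far closer to each other than the WT DMSO libraries were. Atf3 rose 3.28-fold, by 1.75 ± 0.19 in log2(FPKM + 1) (SE; limma adjusted p = 2e-04).

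Atf5 is an ATF4 relative that regulates mitochondrial stress genes (ENSMUSG00000038539, mm10 chromosome 7, 44812256 to 44816658, minus strand). It had 167, 244 and 242 FPKM in WT Tu, against 338, 290 and 296 FPKM in WT DMSO. The most abundant of the 10 without tunicamycin, it fell by 0.51 ± 0.14 in log2(FPKM + 1) (SE; limma adjusted p = 0.02), with no overlap. Leaving out WT DMSO replicate 1 ended that call (limma adjusted p = 0.068), as did dropping the filter on low values (0.061) and fitting only these 2 groups (0.05). The difference was smaller but still called without WT Tu replicate 1 (-0.33; limma adjusted p = 0.0084) and with the GC trend removed (-0.26; 0.044). Nup62 lies across it on the opposite strand, with 1024 to 1471 fragments per library beside 4738 to 10724 for Atf5.

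Cebpg, the dimer partner of ATF4 on many promoters (ENSMUSG00000056216, mm10 chromosome 7, 35046422 to 35056573, minus strand), had 41.1, 36.9 and 37.1 FPKM in WT Tu and 32.4, 31.7 and 30.3 FPKM in WT DMSO. The groups did not overlap. Cebpg rose by 0.28 ± 0.06 in log2(FPKM + 1) (SE; limma adjusted p = 0.006), a call lost when libraries were scaled to total fragments (0.15; limma adjusted p = 0.055). With the GC trend removed it was also 0.15 (limma adjusted p = 0.024).

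Nupr1, a small chromatin-associated stress protein (ENSMUSG00000030717, mm10 chromosome 7, 126623249 to 126630861, minus strand), was the least abundant of the 10. It had 10.96, 18.0 and 19.1 FPKM in WT Tu, against 11.1, 14.3 and 13.4 FPKM in WT DMSO, from 392 to 713 fragments in WT Tu and 445 to 592 in WT DMSO. Here WT Tu replicate 1 was below all WT DMSO libraries and the other two above them. The difference of 0.26 ± 0.21 in log2(FPKM + 1) did not pass (SE; limma adjusted p = 0.38), and without that library it was 0.50 (limma adjusted p = 0.048).

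The feedback regulators moved unevenly. Ppp1r15a encodes GADD34, the inducible subunit that brings phosphatase 1 to eIF2 (ENSMUSG00000040435, mm10 chromosome 7, 45522916 to 45526268, minus strand). It had 122, 138 and 136 FPKM in WT Tu, against 45.2, 60.0 and 65.4 FPKM in WT DMSO. The groups were well apart, with a 2.32-fold ratio of means and a difference of 1.22 ± 0.12 in log2(FPKM + 1) (SE; limma adjusted p = 0.00011).

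Its constitutive counterpart CReP is encoded by Ppp1r15b (ENSMUSG00000046062, mm10 chromosome 1, 133131143 to 133139783, plus strand). Ppp1r15b had 34.7, 35.7 and 35.8 FPKM in WT Tu, against 49.3, 51.2 and 49.4 FPKM in WT DMSO. Replicates were tight, with an SD of 0.589 FPKM in WT Tu and 1.08 FPKM in WT DMSO. Ppp1r15b fell by 0.49 ± 0.04 in log2(FPKM + 1) (SE; limma adjusted p = 5.9e-05). The inducible and the constitutive subunit therefore changed in opposite directions, under all 3 scalings tried.

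Trib3 encodes a pseudokinase that ATF4 and CHOP induce and that in turn restrains ATF4 (ENSMUSG00000032715, mm10 chromosome 2, 152337422 to 152344032, minus strand). It had 146, 166 and 162 FPKM in WT Tu, against 121, 134 and 130 FPKM in WT DMSO. Trib3 rose by 0.30 ± 0.06 in log2(FPKM + 1) (SE; limma adjusted p = 0.0062), a call lost with libraries scaled to total fragments (limma adjusted p = 0.08). With the GC trend removed the difference was 0.48 (limma adjusted p = 9.6e-05). Its 1.24-fold ratio of means stood beside the 10.5-fold ratio of Ddit3.

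Chac1, an enzyme that degrades glutathione and is a known target of ATF4 with ATF3 and CHOP (ENSMUSG00000027313, mm10 chromosome 2, 119351229 to 119354381, plus strand), had 41.4, 49.6 and 55.0 FPKM in WT Tu and 56.3, 58.4 and 55.4 FPKM in WT DMSO. All 3 WT Tu libraries were below all WT DMSO libraries, the closest by less than 1 FPKM. The difference of -0.23 ± 0.10 in log2(FPKM + 1) did not pass (SE; limma adjusted p = 0.12). It passed with libraries scaled to total fragments (-0.36; limma adjusted p = 0.033), under quantile normalization (-0.30; 0.044) and without WT Tu replicate 3 (-0.32; 0.041). It was smaller without WT Tu replicate 1 (-0.12; limma adjusted p = 0.29) and with the GC trend removed (-0.06; 0.58), and over all alternatives it was below 0.

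WT Tu and WT DMSO did not overlap in 8 of the 10 genes, where 46.7% of all genes tested did not. WT Tu replicate 1 was the lowest of its group in 9 of the 10, the exception being Cebpg, and WT DMSO replicate 1 the lowest of its group in 7. Scaling to total fragments put the median difference of all genes at -0.11 in log2(FPKM + 1), so that a difference of 0 under this scaling lies above that median. GC-rich genes tended to have lower differences (Spearman rho -0.345 over 11848 genes, which do not count as independent replicates). The members ranged in GC from 43.3% in Cebpg to 61.7% in Atf5.

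Genes of the surrounding pathway were taken from lists chosen with earlier results of these data known. Of 8 eIF2 kinases and modulators tested, with the eIF2 subunit gene Eif2s1 counted among them, 4 rose, 1 fell and 3 did not pass. Eif2ak3, which encodes PERK, averaged 12.6 FPKM in WT Tu and 4.61 FPKM in WT DMSO, a difference of 1.28 ± 0.07 in log2(FPKM + 1) (SE; limma adjusted p = 2.5e-06). Dnajc3, a cochaperone known to inhibit eIF2 kinases, rose by 3.07 ± 0.11 on that scale (SE; limma adjusted p = 2.9e-07) and Impact, an inhibitor of the kinase GCN2, by 0.73 ± 0.11 (SE; limma adjusted p = 0.0011). Eif2ak2, the kinase that senses double-stranded RNA, fell by 0.86 ± 0.09 (SE; limma adjusted p = 0.00012). Among phosphatase 1 catalytic subunits and the actins that join GADD34 in its complex, 1 of 5 rose and 3 fell, Actb by 0.55 ± 0.09 (SE; limma adjusted p = 0.0017). Over all genes tested, 33.6% were called in this comparison, 17.7% higher and 15.9% lower.

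ATF4 targets gave no single direction in WT Tu against WT DMSO. Of 17 amino acid supply genes, 6 rose, 1 fell and 10 did not pass, with a median difference of 0.10 in log2(FPKM + 1). Over all genes tested, 33.6% were called, 17.7% higher and 15.9% lower. The 1 that fell was Slc1a5, low at means of 0.806 FPKM in WT Tu and 1.25 in WT DMSO (limma adjusted p = 0.048). Over the 6 alternatives run for the lists, 4 to 6 of the 17 rose and 0 to 3 fell. The 0 came with the GC trend removed and without WT Tu replicate 1, and the 3 with libraries scaled to total fragments. The transporters Slc38a2 and Slc7a1 rose by 0.60 ± 0.09 and 0.60 ± 0.06 (SE; limma adjusted p = 0.0014 and 9e-05), while Asns, a classic ATF4 target that makes asparagine, was at -0.01 and is named here after its value was seen. Of 13 genes for aminoacyl-tRNA synthetases and the tRNA exporter Xpot, 9 rose, 1 fell and 3 did not pass. Wars, the tryptophan enzyme, rose by 1.47 ± 0.06 (SE; limma adjusted p = 9.5e-07). Under scaling to total fragments 3 of these 13 rose and 2 fell, and under quantile normalization 3 rose.

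Of 19 other stress targets in the same comparison, 4 rose, 3 fell and 12 did not pass, again a share near the 33.6% called over all genes tested. Herpud1, an ER protein of ER-associated degradation, rose by 4.62 ± 0.15 in log2(FPKM + 1) (SE; limma adjusted p = 1.9e-07), whereas Ddit4, an inhibitor of mTOR signalling, fell by 0.98 ± 0.15 (SE; limma adjusted p = 0.0013) and the hormone gene Fgf21 by 0.73 ± 0.16 (SE; limma adjusted p = 0.0082). Of 7 CHOP targets tested, 2 rose and 1 fell. The 2 that rose were the ER oxidases Ero1lb (2.65 ± 0.10) and Ero1l (0.79 ± 0.12; SE; limma adjusted p = 5e-07 and 0.0012), and the one that fell was the death receptor gene Tnfrsf10b (-0.38 ± 0.12; SE; limma adjusted p = 0.036). Of 18 bZIP partners and relatives, 2 rose, 4 fell and 12 did not pass, so that the share called was near the 33.6% of all genes tested. Cebpa, a regulator of hepatocyte identity, fell by 1.15 ± 0.18 (SE; limma adjusted p = 0.0016). Under the 6 alternatives run for the lists, 5 to 6 of these genes fell and 2 to 4 rose, the 4 without WT Tu replicate 1.

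Shorter lists are given beside the 33.6% of all genes tested that were called in this comparison. Of 8 mitochondrial stress targets of ATF5, 2 rose, 1 fell and 5 did not pass, and under each of 3 other scalings 1 rose and 2 fell. Of 6 genes for the degradation of ATF4, Fbxw11 rose, by 0.32 ± 0.05 in log2(FPKM + 1) (SE; limma adjusted p = 0.0013), and 5 did not pass. Of 3 relatives of Trib3 and Chac1 tested, 0 rose, 2 fell and 1 did not pass. Trib1, the relative of Trib3, fell by 0.56 ± 0.10 (SE; limma adjusted p = 0.0035) and Ggct by 0.29 ± 0.09 (SE; limma adjusted p = 0.037).

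**Figure D2:**
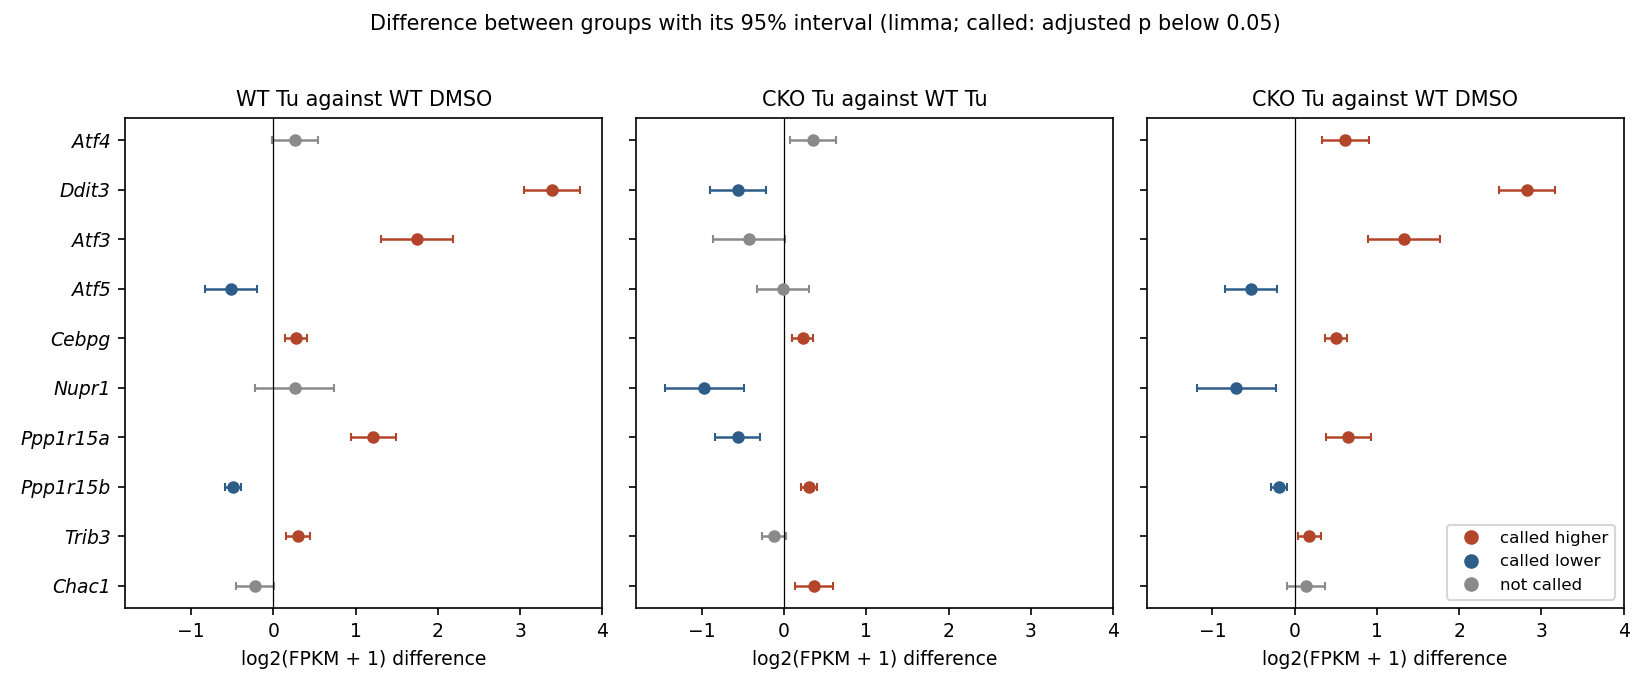
Difference between groups in log2(FPKM + 1) (horizontal axis) with its 95% interval from limma, for each regulator in 3 comparisons, coloured by whether the adjusted p was below 0.05. Ddit3 lies near 3.38, -0.56 and 2.83 from left to right, and Ppp1r15a and Ppp1r15b lie on opposite sides of 0 in every comparison.

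Setting CKO Tu against WT Tu compares cells with and without the Cre that targets COX-2 during ER stress, with the sex difference described above. Ptgs2 mRNA itself was too low to test in these groups. CHOP, GADD34 and Nupr1 mRNAs were lower in CKO Tu, while Ppp1r15b, Chac1 and Cebpg were higher. Atf4, Atf3, Trib3 and Atf5 did not pass. That makes 3 higher, 3 lower and 4 not called, where limma called 38.3% of all genes tested, 18.7% higher and 19.6% lower. The median difference of the 10 in log2(FPKM + 1) was -0.07, against 0.00 over all genes tested.

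Ddit3 had 289, 332 and 373 FPKM in CKO Tu, against the 457 to 507 FPKM in WT Tu given above. All CKO Tu libraries were below all WT Tu libraries, at 0.681 of the mean, a difference of -0.56 ± 0.15 in log2(FPKM + 1) (SE; limma adjusted p = 0.017). The call was lost without CKO Tu replicate 1 (limma adjusted p = 0.065) and without the filter on low values (0.051). Ppp1r15a had 86.8, 91.0 and 88.9 FPKM in CKO Tu, against 122 to 138 FPKM in WT Tu. At 0.673 of the mean, its share of the WT Tu level was close to that of Ddit3, with a difference of -0.56 ± 0.12 (SE; limma adjusted p = 0.0064).

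Nupr1 had 9.52, 7.08 and 6.13 FPKM in CKO Tu, against 10.96 to 19.1 FPKM in WT Tu. Its difference, -0.97 ± 0.21 in log2(FPKM + 1), was the largest of the 10 in this comparison (SE; limma adjusted p = 0.0069), and 4.37% of all genes tested differed by more. The pair of groups did not overlap, and all CKO Tu libraries also lay below the WT DMSO libraries. Atf3 had 181, 188 and 196 FPKM in CKO Tu, below all WT Tu libraries, and its difference of -0.42 ± 0.19 did not pass (SE; limma adjusted p = 0.11). It passed with only the 2 groups in the fit (limma adjusted p = 0.002) and with voom on recovered fragments (0.039), and over all alternatives its adjusted p ran from 0.002 to 0.24.

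The genes that were higher in CKO Tu were a phosphatase subunit, an enzyme and a bZIP factor. Ppp1r15b had 43.9, 44.1 and 43.5 FPKM in CKO Tu, above the 34.7 to 35.8 FPKM in WT Tu and below the 49.3 to 51.2 FPKM in WT DMSO, a difference from WT Tu of 0.30 ± 0.04 in log2(FPKM + 1) (SE; limma adjusted p = 0.00084). Chac1 had 59.3, 59.5 and 69.2 FPKM in CKO Tu, above all libraries of both WT groups, with a difference from WT Tu of 0.36 ± 0.10 (SE; limma adjusted p = 0.022). That call was lost without CKO Tu replicate 3 (limma adjusted p = 0.076), without the filter (0.055) and with only the 2 groups in the fit (0.05). Cebpg was likewise above both WT groups, at 46.3, 44.2 and 44.4 FPKM in CKO Tu, and its difference from WT Tu of 0.23 ± 0.06 was lost without CKO Tu replicate 1 (SE; limma adjusted p = 0.014 and 0.056).

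Atf4 had 347, 342 and 341 FPKM in CKO Tu, with an SD of 2.99 FPKM. All 3 exceeded all WT libraries. The difference from WT Tu of 0.35 ± 0.12 in log2(FPKM + 1) missed the threshold (SE; 95% interval 0.07 to 0.63; limma adjusted p = 0.053). Over the alternatives the adjusted p ran from 0.019 to 0.13, and it was below the threshold in 9 of 17, among them without WT Tu replicate 1 (difference 0.19; limma adjusted p = 0.047), 2 (0.42; 0.046) or 3 (0.44; 0.033).

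Trib3 had 145, 142 and 148 FPKM in CKO Tu and overlapped WT Tu, with a difference of -0.12 ± 0.06 in log2(FPKM + 1) (SE; limma adjusted p = 0.15). It passed without WT Tu replicate 1, at -0.18 (limma adjusted p = 0.02), and with the GC trend removed, at -0.20 (0.0087). Under quantile normalization it was -0.02 (limma adjusted p = 0.84). Atf5 had 209, 205 and 224 FPKM in CKO Tu, inside the range of WT Tu. Its difference of -0.02 ± 0.14 had a 95% interval from -0.33 to 0.30 (SE; limma adjusted p = 0.94), and its sign turned under scaling to total fragments and under quantile normalization.

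CKO Tu and WT Tu did not overlap in 8 of the 10 genes, where 51.2% of all genes tested did not. The CKO Tu libraries lay between the WT groups in 4 genes (Ddit3, Atf3, Ppp1r15a and Ppp1r15b), above both in 3 (Atf4, Chac1 and Cebpg), below both in 1 (Nupr1), and overlapped a WT group in 2 (Trib3 and Atf5). Both comparisons above share the WT Tu libraries, so that a high or low WT Tu group pushes their differences in opposite directions.

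Ratios between genes within a library do not depend on how libraries were scaled, and these were chosen after their values were seen and carry no test. The FPKM ratio of Ppp1r15a over Ppp1r15b was 1.98, 2.06 and 2.04 in CKO Tu, 3.50, 3.87 and 3.81 in WT Tu, and 0.918, 1.17 and 1.32 in WT DMSO. GADD34 mRNA was thus about level with CReP mRNA without tunicamycin and well above it with tunicamycin, less so in CKO Tu. Ddit3 over Atf4 was 0.834, 0.971 and 1.09 in CKO Tu, 2.11, 1.68 and 1.66 in WT Tu, and 0.175, 0.219 and 0.223 in WT DMSO. Trib3 over Ddit3 averaged 0.441 ± 0.0544 in CKO Tu, 0.325 ± 0.00744 in WT Tu and 2.83 ± 0.507 in WT DMSO (SD, n = 3 each). The groups did not overlap in any of these 3 ratios, which were chosen with their values known. Whether other gene pairs do the same was not tested.

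**Figure D3:**
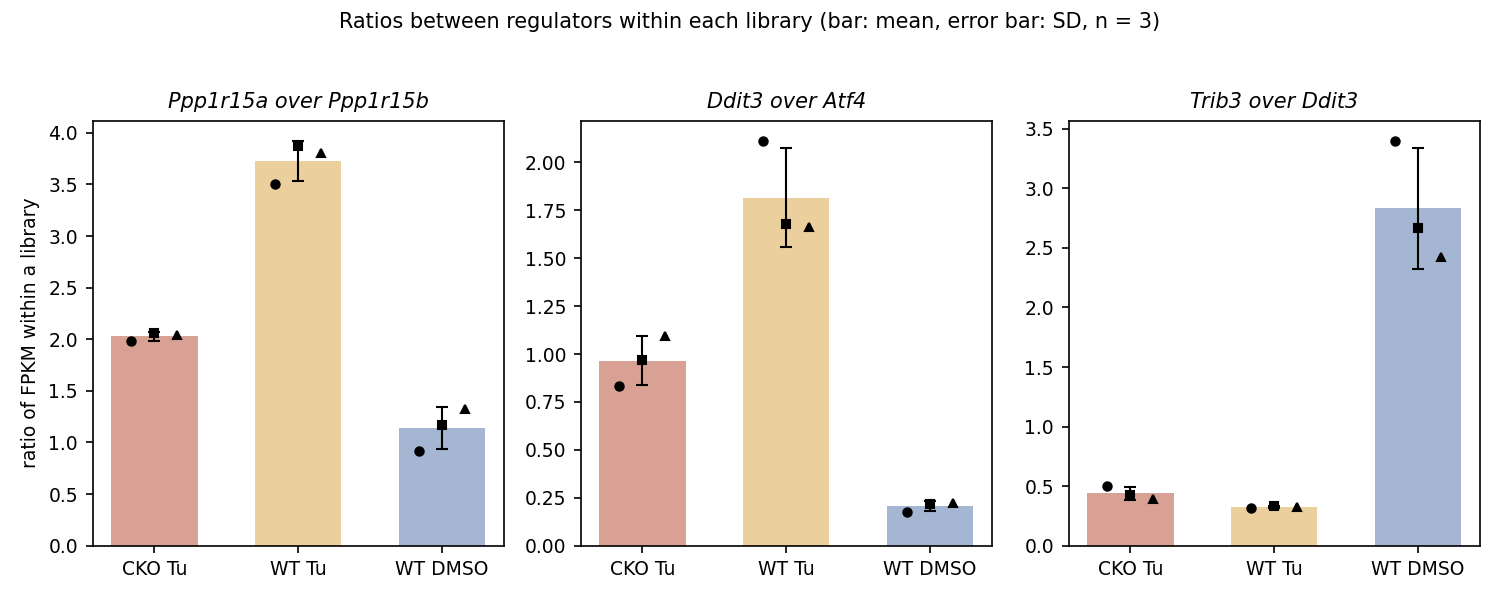
Ratio of FPKM between 2 regulators within each library (vertical axis, from 0) in CKO Tu, WT Tu and WT DMSO, with bars for the mean, error bars for the SD and symbols for replicates 1 to 3. Ppp1r15a over Ppp1r15b averages 2.03, 3.73 and 1.14, and Ddit3 over Atf4 averages 0.966, 1.82 and 0.205.

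Atf5 over Atf4 was 0.619 ± 0.0323 in CKO Tu, 0.797 ± 0.0250 in WT Tu and 1.39 ± 0.235 in WT DMSO (SD, n = 3 each). Chac1 over Atf4 was 0.182 ± 0.0176 in CKO Tu, 0.180 ± 0.0123 in WT Tu and 0.254 ± 0.0226 in WT DMSO (SD, n = 3 each), and the ranges of the 2 tunicamycin groups overlapped. In order of level, Atf4 came first and Ddit3 second in CKO Tu with overlapping ranges. WT Tu had Ddit3 first, above Atf4, whose range overlapped that of Atf3. In WT DMSO the order began with Atf5 and then Atf4, and the ranges of Atf3 and Ppp1r15a, of Ppp1r15a and Chac1, and of Ppp1r15b and Ddit3 overlapped. Nupr1 was last in each group.

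Of 17 amino acid supply targets of ATF4, 2 were higher, 11 lower and 4 not called in CKO Tu against WT Tu. Their median difference was -0.36 in log2(FPKM + 1). Over all genes tested, 38.3% were called in this comparison, 18.7% higher and 19.6% lower. Aldh18a1, which starts proline synthesis, averaged 14.6 FPKM in CKO Tu and 29.3 FPKM in WT Tu, a difference of -0.97 ± 0.09 (SE; limma adjusted p = 0.00012). The serine synthesis genes Phgdh and Psat1 differed by -0.73 ± 0.09 and -0.68 ± 0.06 (SE; limma adjusted p = 0.00035 and 8.6e-05), and the arginine transporter gene Slc7a1 by -0.54 ± 0.06 (SE; limma adjusted p = 0.00018). Of the same 13 synthetase and Xpot genes, 0 were higher and 7 lower, where 6 did not pass. Aars and Yars, for alanine and tyrosine, led with -0.44 ± 0.05 and -0.40 ± 0.06 (SE; limma adjusted p = 0.00042 and 0.00078).

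Of 8 mitochondrial stress targets of ATF5, 0 were higher, 5 lower and 3 not called in CKO Tu against WT Tu. The chaperonin genes Hspe1 and Hspd1 differed by -0.67 ± 0.11 and -0.51 ± 0.06 in log2(FPKM + 1), and the matrix protease gene Lonp1 by -0.58 ± 0.05 (SE; limma adjusted p = 0.0014, 0.00028 and 8.1e-05). These lower levels stood beside an Atf4 level above that of WT Tu in every library and an Atf5 level that did not pass. Mitochondrial fragments were 4.46% to 4.65% in CKO Tu and 5.25% to 6.87% in WT Tu, and the part of that difference in these values was not tested.

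**Figure D4:**
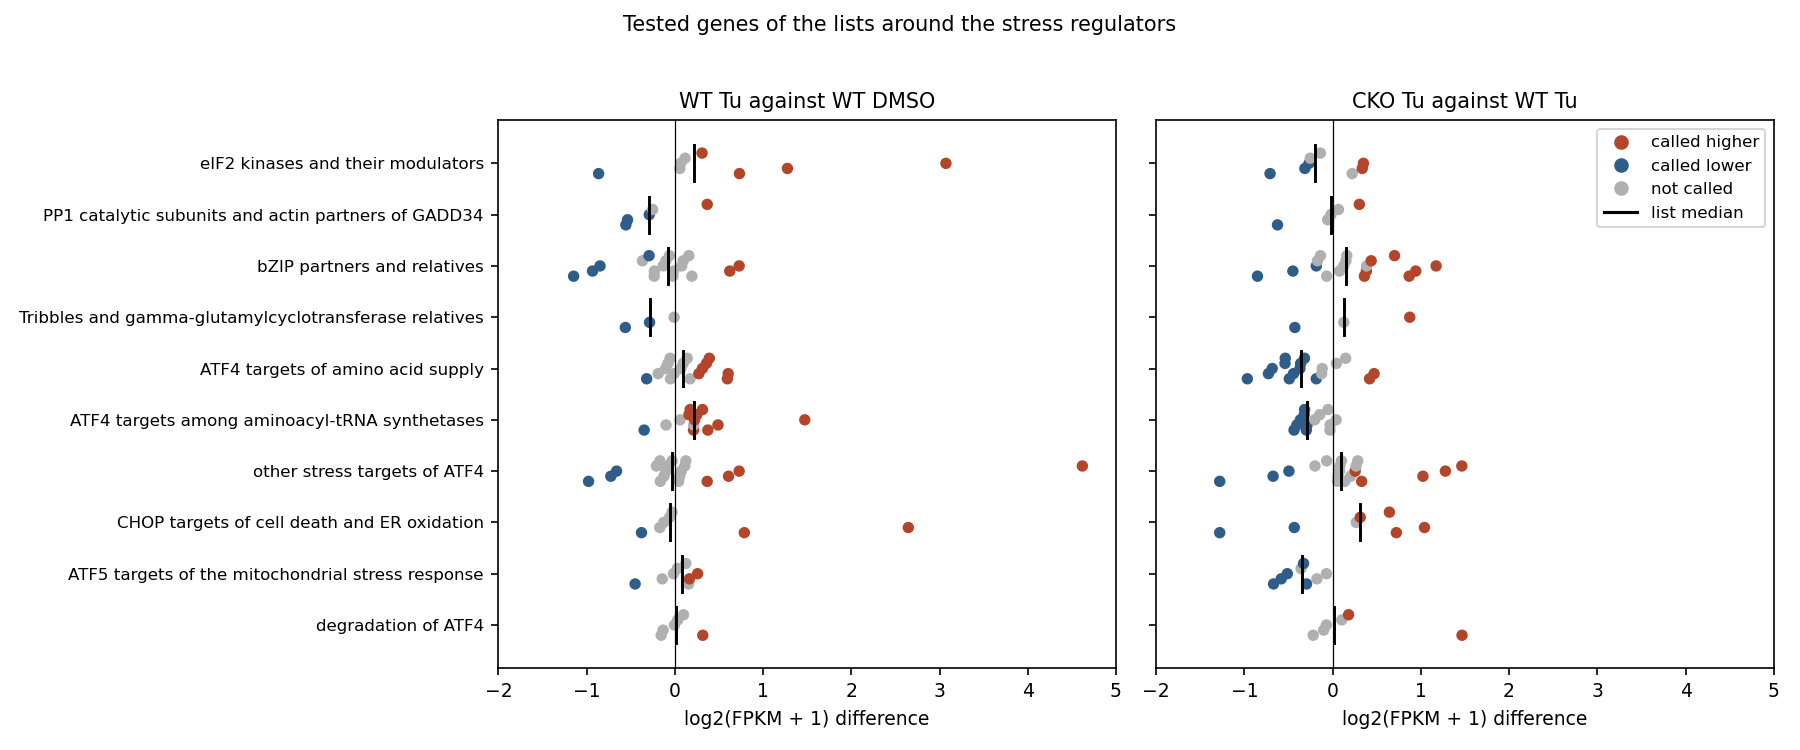
Difference in log2(FPKM + 1) (horizontal axis) of each tested gene in 10 lists around the regulators (rows), for WT Tu against WT DMSO and CKO Tu against WT Tu, coloured by call, with a line at the list median. The amino acid supply list has a median of 0.10 on the left and -0.36 on the right.

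Other lists were mixed in CKO Tu against WT Tu. Of 7 CHOP targets, 4 were higher and 2 lower, though Ddit3 itself was lower: Ero1l, Bcl2l11 and Bbc3, an ER oxidase gene and a pair of BH3-only death genes, were higher by 1.04 ± 0.12, 0.72 ± 0.12 and 0.64 ± 0.19 in log2(FPKM + 1) (SE; limma adjusted p = 0.00026, 0.0021 and 0.028), and Gdf15, a secreted stress hormone, was lower by a difference of -1.28 ± 0.17 (SE; limma adjusted p = 0.00063). Bcl2l11 was low, at means of 1.68 FPKM in CKO Tu, 0.627 in WT Tu and 0.838 in WT DMSO. Both WT means lay below the FPKM of 1 used as the filter, so CKO Tu may have carried it into the test. Of 19 other stress targets of ATF4, 5 were higher, 3 lower and 11 not called, a share near the 38.3% called over all genes tested. Gdf15, given above, is also on this list and among its 3 lower genes. Stc2, among the 5 higher, averaged 1.32 FPKM in CKO Tu, 0.135 in WT Tu and 0.0397 in WT DMSO. It entered the test only through CKO Tu. Hmox1, the heme oxygenase gene, averaged 895 FPKM in CKO Tu and 322 FPKM in WT Tu (difference 1.46 ± 0.17, SE; limma adjusted p = 0.00025), and Ddit4 averaged 24.5 FPKM in CKO Tu and 9.53 FPKM in WT Tu (1.28 ± 0.15, SE; limma adjusted p = 3e-04). Of 18 bZIP relatives, 7 were higher, 3 lower and 8 not called, where 38.3% of all genes tested were called. Without WT Tu replicate 1 it was 6 that were lower. Dbp, among the 7 higher, was low, at means of 1.99 FPKM in CKO Tu, 0.850 in WT Tu and 0.854 in WT DMSO. Cebpd, Fos and Cebpa were higher by 1.17 ± 0.14, 0.94 ± 0.24 and 0.87 ± 0.18 and Fosl1 differed by -0.85 ± 0.16 (SE; limma adjusted p = 0.00028, 0.014, 0.0059 and 0.0039).

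Among the 8 genes for eIF2 kinases, their modulators and an eIF2 subunit, 2 were higher in CKO Tu and 3 lower. The subunit gene, Eif2s1, was 1 of the 3 lower (-0.27 ± 0.04 in log2(FPKM + 1), SE; limma adjusted p = 0.0018). Eif2ak3 averaged 16.2 FPKM in CKO Tu and 12.6 FPKM in WT Tu, a difference of 0.34 ± 0.07 in log2(FPKM + 1) (SE; limma adjusted p = 0.0042), and Impact averaged 31.3 FPKM in CKO Tu and 51.9 FPKM in WT Tu (-0.71 ± 0.11, SE; limma adjusted p = 0.0012). Nck1 was the other gene higher (0.35 ± 0.08, SE; limma adjusted p = 0.0065). Eif2ak4, which encodes GCN2, was the remaining gene lower (-0.31 ± 0.07, SE; limma adjusted p = 0.0074). PERK mRNA was thus higher, and GCN2 mRNA lower, in the cells whose Ddit3 and Ppp1r15a were lower. Of 6 genes for the degradation of ATF4, 2 were higher and 4 not called, with Egln3, a prolyl hydroxylase that destabilises ATF4, at 52.0 FPKM in CKO Tu and 17.8 FPKM in WT Tu (1.47 ± 0.16, SE; limma adjusted p = 2e-04). Trib1 averaged 10.5 FPKM in CKO Tu and 5.22 FPKM in WT Tu (0.87 ± 0.10, SE; limma adjusted p = 0.00032), while Ggct was lower (-0.43 ± 0.09, SE; limma adjusted p = 0.0058). Of the 5 phosphatase 1 and actin genes, Ppp1cc was higher and Actb lower (0.30 ± 0.08 and -0.62 ± 0.09, SE; limma adjusted p = 0.018 and 0.00083). Shares called in this list and in the ATF4 degradation list were near the 38.3% of all genes tested.

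Set against WT DMSO, CKO Tu cells differ in drug, genotype and sex-linked transcripts at once. Of the 10 genes 6 were higher, 3 lower and 1 not called by limma, where 49.5% of all genes tested were called, 25.3% higher and 24.2% lower. In none of the 10 did these groups overlap, which held for 63% of all genes tested. Ddit3 was 7.15-fold higher (2.83 ± 0.15 in log2(FPKM + 1), SE; limma adjusted p = 1.2e-06), Atf3 2.44-fold (1.32 ± 0.19, SE; limma adjusted p = 0.00048), Ppp1r15a 1.56-fold (0.65 ± 0.12, SE; limma adjusted p = 0.0019) and Atf4 1.53-fold (0.62 ± 0.12, SE; limma adjusted p = 0.003). Cebpg was also higher and Ppp1r15b lower (0.50 ± 0.06 and -0.19 ± 0.04, SE; limma adjusted p = 0.00011 and 0.0064).

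Atf5 and Nupr1 were lower in CKO Tu than in WT DMSO (-0.53 ± 0.14 and -0.71 ± 0.21 in log2(FPKM + 1), SE; limma adjusted p = 0.012 and 0.021). The Nupr1 call was lost in 5 of 17 alternatives, with adjusted p up to 0.073, among them without WT DMSO replicate 2 or 3 (limma adjusted p = 0.067 and 0.059) and without CKO Tu replicate 2 or 3 (0.06 and 0.073). Trib3 was higher by 0.18 ± 0.06 (SE; limma adjusted p = 0.041), a call lost in 9 of 17 alternatives, with adjusted p up to 0.24. Those include leaving out WT DMSO replicate 1 or 3 (limma adjusted p = 0.12 and 0.083) or any CKO Tu library (0.098, 0.078 and 0.11). Chac1 differed by 0.14 ± 0.10 and did not pass (SE; limma adjusted p = 0.3). It passed with the GC trend removed (0.24; limma adjusted p = 0.028) and was 0.07 without CKO Tu replicate 3 (0.66).

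Genes whose pattern over the 9 libraries was most like that of 3 of the regulators were found among 6310 genes, by the root mean square difference of log2(FPKM + 1) after centring each gene on its own mean. Nearest to Ddit3 were Hspa5 (0.245), Calr (0.246), Dnajc3 (0.271) and Manf (0.359), which encode ER chaperones and folding factors. Hspa5 averaged 4862 FPKM in CKO Tu, 5312 in WT Tu and 576 in WT DMSO. Nearest to Atf4 were Serf2 (0.0724), Zswim8 (0.0765), Pnn (0.0814) and Arsa (0.0865), and nearest to Chac1 were Rdh14 (0.0575), Rab40c (0.0591), Gnl1 (0.0690) and Tbca (0.0704). Small distances for Atf4 and Chac1 go with their small changes over the libraries.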

How the data were processed

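The submitters' processing notes name HISAT2 2.2.1, featureCounts 1.5.0-p3 and the mm10 build. For the annotation release, strand setting and library scaling nothing was stated in the sources used here. The authors deposited FPKM for 54532 genes, and no counts were used. Multiplied by gene length, 100% of values came out as whole fragments, within 0.001, once divided by the step found in their library. The library sizes behind the FPKM were 0.948 to 1.07 times the total fragments. Differences were taken on the log2(FPKM + 1) scale, which understates changes of low genes. The fit used limma 3.58.1 (R 4.3.3), an intensity trend and 1 mean per group over all 9 libraries, two-sided. Genes entered it if 3 or more libraries reached an FPKM of 1. GC content came from the longest transcript in GENCODE vM21 on the same build. The steps were tested on simulated data.

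The 10 members, the 10 pathway lists and the 6 marker lists were chosen with earlier results of these data known. All members are named, with up to 4 genes of a list with the largest difference. A few others, such as Asns, Eif2s1, Slc1a5 and Dbp, are named besides. Genes named as most alike had mean FPKM of at least 5. Alternatives were a pseudocount of 0.1, no filter, a filter at FPKM of 5, upper-quartile, total-fragment and quantile scaling, only the groups compared, a replicate block, no trend, voom on recovered fragments, and each library left out. Removal of a lowess trend on GC (span 0.3), and the alternatives for the pathway lists, were added after seeing the data. The lists were counted under 3 scalings, voom, removal of the GC trend and without WT Tu replicate 1, and no other library was left out for them.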

Additional observations from a re-analysis of the deposited data

How the results depend on the processing

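For the 10 regulators in 3 comparisons, 460 of 510 differences recomputed under 17 alternatives kept their direction and their side of the threshold, 25 lost the call, 20 gained one and 5 reversed. All 5 reversals were Atf5 in CKO Tu against WT Tu, at -0.02 as reported, 0.0416 under scaling to total fragments, 0.0476 under quantile normalization, and -0.20 to 0.0775 when 1 library was left out. Ppp1r15a and Ppp1r15b kept their calls in all 3 comparisons under all 17, and Ddit3 and Atf3 kept theirs in both comparisons with WT DMSO. In WT Tu against WT DMSO, regulators called higher numbered 5 as reported and 3 under scaling to total fragments. The highest count over the alternatives was 7, and Atf4 and Nupr1 gained calls without WT Tu replicate 1. Regulators called lower numbered 2, but 1 without the filter on low values, 1 with only the groups compared, and 1 to 3 when 1 library was left out. The causes were not tested. Counts of all genes called stayed within 1.5 times those reported. In the pathway lists, for which no library other than WT Tu replicate 1 was left out, the synthetase genes called higher in WT Tu against WT DMSO numbered 9, and 3 under scaling to total fragments or quantile normalization. In CKO Tu against WT Tu, among the 6 alternatives run for the lists, counts moved by over 1.5 times without WT Tu replicate 1, to 6 lower bZIP genes beside 3 and to 2 higher phosphatase 1 and actin genes beside 1. In CKO Tu against WT DMSO, amino acid supply genes called higher numbered 4, and 2 under scaling to total fragments or upper-quartile scaling.

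With the replicate number as a block, limma called 3696 genes in WT Tu against WT DMSO, 4248 in CKO Tu against WT Tu and 5683 in CKO Tu against WT DMSO, beside 3981, 4538 and 5869, and Atf4 passed in CKO Tu against WT Tu (limma adjusted p = 0.036). Same-numbered libraries had correlations of deviations from their group means of -0.0967 to 0.0208, and 0 of 9 libraries correlated best with their own number. With 3 libraries per group, these values cannot decide whether same-numbered libraries share an animal or a batch. Depth limits Nupr1 most, with 235 to 713 fragments per library.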
